A study of Rattus norvegicus with 6 samples.

Results

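The genes described here encode the subunits and helpers of oxidative phosphorylation, the mitochondrial process that makes ATP, measured in alveolar tissue of the rat jaw. They were chosen by name: the 13 protein genes of the mitochondrial genome (ND1 to ND6 with ND4L, CYTB, COX1 to COX3, ATP6 and ATP8) and 104 nuclear rows whose names begin as those of respiratory chain subunits do. This gave 117 of the 37203 rows in the count table. RNA sequencing compared tooth movement with and without corticision, a surgical cut into cortical bone meant to speed orthodontic movement. The 3 libraries titled case (5, 6 and 9) carry the source name for movement without corticision, and the 3 titled control (5, 6 and 10) the one for movement with it, which is opposite to the usual sense of those titles. The titles name the groups below, and differences are given as case minus control. The labels give no strain, age or animal number, so the p-values measure only the spread between these libraries, which may be technical.

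Oxidative phosphorylation runs on 5 complexes in the inner mitochondrial membrane. Complexes I, III and IV pass electrons to oxygen and pump protons, complex II feeds electrons in from succinate, and complex V, the ATP synthase, uses the proton gradient to make ATP. Complexes I, III, IV and V are built from subunits of both genomes, whereas every subunit of complex II is nuclear. Mitochondrial messages are cut from long transcripts that run around both strands of the circular genome, so their levels can move apart from those of the nuclear genes. Bone-resorbing osteoclasts are known for being rich in mitochondria, and muscle uses isoforms of its own for some complex IV subunits.

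Library totals ran from 10886303 counts in control 5 to 14433740 in case 6. Levels below are counts per 1000000 counts of the library (CPM), scaled with the trimmed mean of M-values, and intervals on shares cover counting error only. Osteoblast markers took 4.70 to 8.71% of counts, with 7 of 7 detected in every library. Both libraries numbered 5 stood apart in neutrophil, osteoclast, skeletal muscle and tooth-forming cell markers. They did so in erythroid markers by a narrow gap, at 2.09% in case 5 and 2.28% in control 5 against 2.07% in control 6. They did not in osteoblast, oral epithelium, B cell or adipocyte markers. B cell markers took 0.0162% in case 5, 0.0126% in control 5 and 0.00400 to 0.0136% in the others. Adipocyte markers took 0.00713%, 0.00286% and 0.00450 to 0.0258% in the same order. Neutrophil markers (8 listed, 7 or 8 detected) took 0.860% in case 5 and 0.702% in control 5 and 1.53 to 1.93% in the others, and osteoclast markers (9 of 10 in the table, all 9 detected) 0.455%, 0.477% and 0.616 to 0.774%. Tooth-forming cell markers (5 to 9 of 9 detected) took 0.266% in case 5 and 0.306% in control 5 and 0.191 to 0.214% in the others, where Enam, Amtn and Klk4 were at 0. Oral epithelium markers (10 of 11) took 0.401% in control 5 and 0.00240 to 0.00635% elsewhere. Skeletal muscle markers (16 of 16) took 0.00134% in control 5, where Myh2 and Ttn were at 0. They took 0.0174% in case 5 and 0.0487 to 0.168% in the others. In such bulk samples fewer cells of a type and less RNA per cell cannot be told apart.

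The question between the groups was whether respiratory chain transcripts differed between movement without and with corticision, and whether the mitochondrial and nuclear parts did so alike. Of the 117 rows, 110 had enough counts to be tested, all 13 mitochondrial and 97 nuclear ones. The edgeR quasi-likelihood test called 0 of these 110, and 0.00% of all 16066 genes tested. With 3 libraries in each group, that count cannot show that no gene differed. At an unadjusted p under 0.05, edgeR gave 1 member higher in case (Ndufs7) and 1 lower (ATP8), where 4.15% of all genes had such a p, 1.88% higher and 2.27% lower. Groups did not overlap in 9 members, 2 higher and 7 lower in case, while 8.47% of all genes had separate groups, 4.05% higher and 4.42% lower. DESeq2 called 0 members and 0.131% of all genes.

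The mitochondrially encoded messages took a larger share of the counts in the control libraries on average, with overlap. They made up 3.71% of counts in case 5 (95% Wilson interval 3.70 to 3.72%), 3.62% in case 6 and 4.91% in case 9, and 6.05% in control 5 (6.03 to 6.06%), 4.48% in control 6 and 5.40% in control 10. The case mean was 4.08 ± 0.721% and the control mean 5.31 ± 0.788% (SD, n = 3, as for every group mean below). Case 9 lay above control 6, so the groups were not separate. The difference was -1.23 percentage points, and -0.675 without both libraries numbered 5. Erythroid markers (10 of 10 detected in each library) took 2.09, 0.205 and 0.765% of the case libraries, in the order above, and 2.28, 2.07 and 1.24% of the control ones. They were lowest in case 6, as the mitochondrial share was. In case 5 they were at 2.09%, while its mitochondrial share of 3.71% was below that of every control library. Their part in the difference was not tested.

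**Figure D1:**
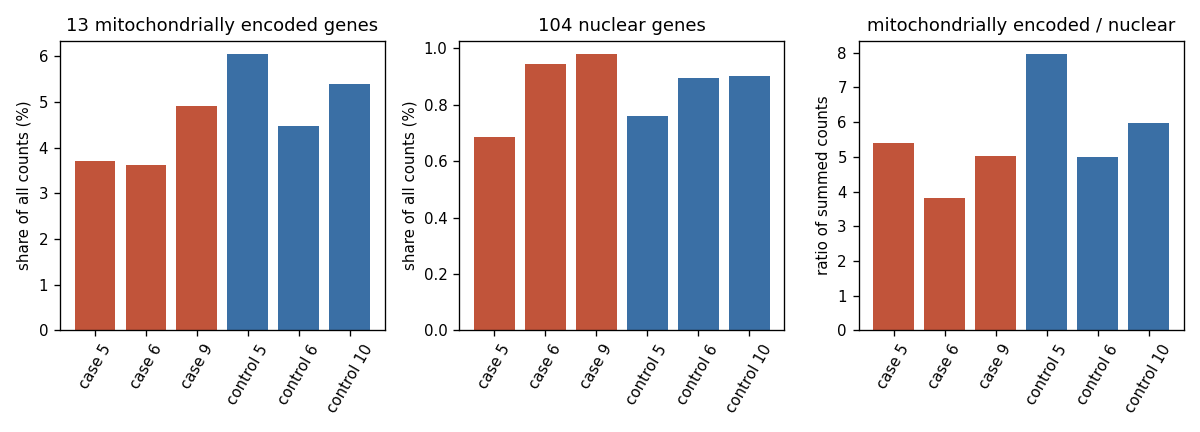
Share of all counts (%) from the 13 mitochondrially encoded genes (left) and the 104 nuclear genes (middle), and the ratio of the summed counts (right), one bar per library, case in red and control in blue. The mitochondrial share was highest in control 5 (6.05%), and the nuclear share was lowest in the libraries numbered 5 (0.687% in case and 0.760% in control).

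Of the 13 mitochondrially encoded genes, 12 had a log2 fold change below 0, as had 53.7% of all tested genes. Their median was -0.44, against -0.02 over all genes. These genes share precursor transcripts, so they are not independent of each other. The median stayed between -0.54 (without case 9) and -0.32 (without case 6) when 1 library was left out, and was -0.27 without both libraries numbered 5.

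Complex I, the entry point for electrons from NADH, has 7 mitochondrially encoded subunits. ND3, a small subunit of its membrane arm, was at 183, 224 and 236 CPM in case 5, 6 and 9 and at 287, 241 and 353 CPM in control 5, 6 and 10. The groups of ND3 were separate by a narrow gap, with a log2 fold change of -0.45 (SE 0.19) and an edgeR adjusted p of 0.999; it was -0.26 without control 10. ND4, a proton-pumping subunit, was at 563, 326 and 625 CPM in case and at 799, 653 and 767 CPM in control. Its groups too were separate, at a log2 fold change of -0.55 (SE 0.27, edgeR adjusted p 0.999), which was -0.32 without case 6, the lowest library.

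ND4L, whose reading frame overlaps that of ND4 on the same message, did not follow it. It was at 379, 188 and 311 CPM in case and at 364, 252 and 333 CPM in control, with a log2 fold change of -0.11 that turned to 0.12 without case 6 and to 0.0019 without control 5. The pumping subunits ND2 (log2 fold change -0.44), ND5 (-0.51) and ND1 (-0.38), which anchors the quinone site, all overlapped between groups and were highest in control 5, at 3717, 2163 and 4146 CPM. Without control 5 they were -0.21, -0.30 and -0.18, and without both libraries numbered 5 ND2 was -0.0903 and ND1 -0.12. ND2 was -0.68 without case 9, and ND1 was -0.25 without case 6.

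ND6 is the one protein gene read from the opposite strand of the mitochondrial genome. Case 5, 6 and 9 held only 33, 23 and 20 of its counts, and control 5, 6 and 10 held 7, 10 and 30. It was the 1 mitochondrial gene with a fold change above 0 (log2 0.50, SE 0.62), which ran from 0.15 without control 5 to 1.49 without control 10 and was -0.09 without both libraries numbered 5. No source used here says whether counting used strand, so its reads cannot be told apart from antisense reads.

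CYTB, the mitochondrially encoded core of complex III, was at 4731, 4112 and 5524 CPM in case and at 7516, 5244 and 6357 CPM in control. Only case 9 reached into the control range, and the log2 fold change of -0.41 was -0.27 without control 5. The 3 catalytic or structural core subunits of complex IV had similar differences: COX1, which holds the oxygen-binding centre, was at 9687, 9217 and 12124 CPM in case and at 13699, 11973 and 14006 CPM in control (log2 fold change -0.35, SE 0.28). COX2, which receives electrons from cytochrome c, was at 5995, 6239 and 8865 CPM in case and at 7793, 10218 and 10330.2 CPM in control (-0.43). COX3 had a log2 fold change of -0.44, or -0.27 without both libraries numbered 5. In all 3, case 9 overlapped the control libraries and case 5 and case 6 lay below every one of them.

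Complex V takes ATP6, part of the proton channel, and the small ATP8 from the mitochondrial genome; they lie on 1 message with overlapping frames. ATP6 was at 5276, 5166 and 7447 CPM in case and at 8363, 7383 and 8873 CPM in control (log2 fold change -0.46, SE 0.28). ATP8 was at 708, 593 and 801 CPM in case and at 2259, 856 and 1016 CPM in control. Its groups were separate and its log2 fold change was -0.97 (SE 0.38, unadjusted p 0.0360 and adjusted p 0.999 in edgeR), which was -0.41 without control 5. ATP8 counts came to 27.0% of ATP6 counts in control 5 and to 10.8 to 13.4% in the other 5 libraries. Control 5 was also the library with oral epithelium markers at 0.401% of counts, whose part in this was not tested.

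**Figure D2:**
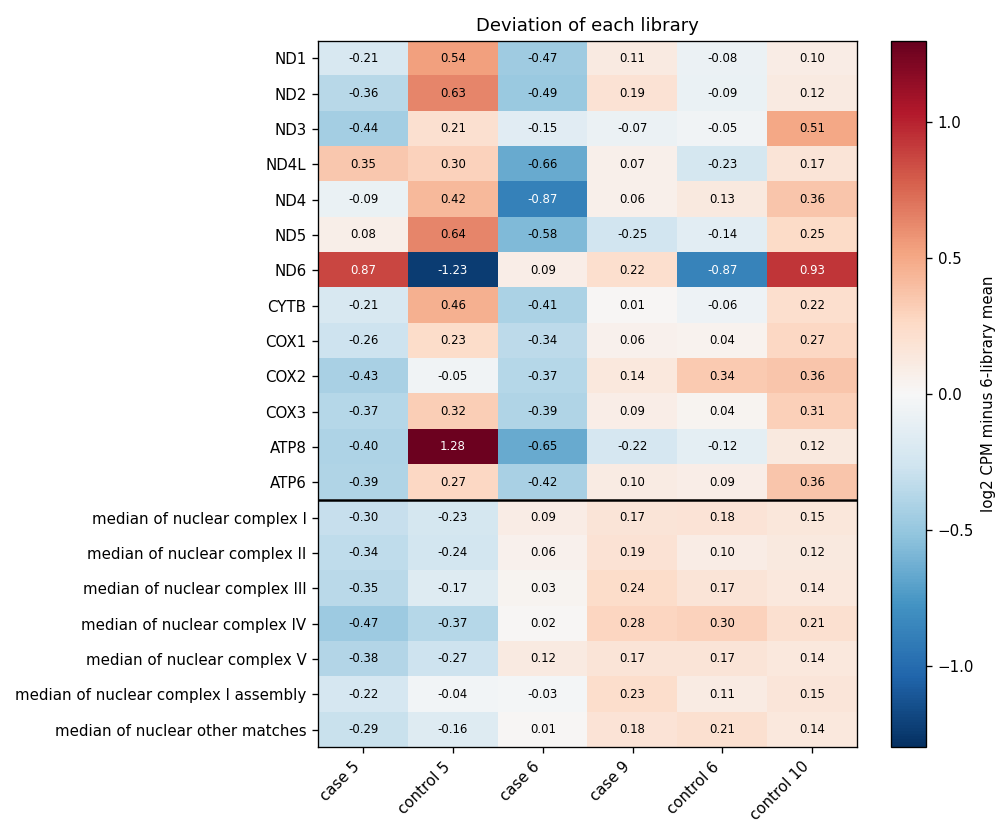
Deviation of each library from the 6-library mean in log2 CPM, for the 13 mitochondrially encoded genes (above the line) and for the median of each nuclear group (below it), with the libraries numbered 5 in the first 2 columns. The mitochondrial rows used no prior count and the nuclear medians a prior count of 2, which matters most for the low counts of ND6. Medians of the nuclear groups were below 0 in case 5 and control 5, while most mitochondrial genes were above 0 in control 5.

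The summed share of the nuclear genes overlapped between the groups and was lowest in the libraries numbered 5. They made up 0.687% of counts in case 5 (0.683 to 0.692%), 0.946% in case 6 and 0.978% in case 9, and 0.760% in control 5, 0.896% in control 6 and 0.902% in control 10. The means were 0.870 ± 0.159% in case and 0.853 ± 0.0801% in control. The 2 lowest shares were those of the libraries numbered 5, 1 of each group.

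Most nuclear members shared this pattern. In 68 of 97 tested nuclear members both libraries numbered 5 lay below each of the other 4 libraries, and in 0 members above; over all tested genes these shares were 17.8% and 20.0%. By complex, the pattern held in 27 of 37 nuclear subunits of complex I, 3 of 4 of complex II, 8 of 9 of complex III, 14 of 16 of complex IV and 13 of 15 of complex V. It held in 0 of 7 assembly factors of complex I. Of the 13 mitochondrially encoded genes it held in 0, and 1, ND4L, was higher in both libraries numbered 5 than in each other library. The median deviation of nuclear members from the 6-library mean in log2 CPM was -0.34 in case 5 and -0.23 in control 5, and 0.05 to 0.20 in the others. The same 2 libraries had the lowest shares of neutrophil, osteoclast and skeletal muscle markers, given above. They had the highest of tooth-forming cell markers and, by a narrow gap, of erythroid ones. The part of these cell types in the pattern was not tested.

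Between the groups the nuclear members had a median log2 fold change of -0.07, with 58 below 0 and 39 above. No single sign of that median held: leaving out case 5 gave 0.11, and it was 0.05 without control 6 and 0.03 without control 10, but -0.22 without control 5 and -0.19 without case 9. The number of nuclear members above 0 ran from 20 without case 9 or control 5 to 67 without case 5.

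Of the 37 nuclear subunits of complex I, 22 had a fold change below 0 and 15 above, with a median of -0.07. Ndufs7, the subunit that carries the last iron-sulphur cluster before the quinone, was at 58.2, 72.2 and 77.7 CPM in case and at 57.5, 53.0 and 50.1 CPM in control. The gap between its groups was narrow, between case 5 and control 5, and the log2 fold change was 0.37 (SE 0.16, unadjusted p 0.0457 and adjusted p 0.999 in edgeR). It was 0.58 without both libraries numbered 5. Ndufv1, which binds NADH, was the other with separate groups, at 111, 125 and 122 CPM in case and 96.4, 108 and 109 CPM in control (log2 fold change 0.20, SE 0.13). It was named because its groups were separate, after its values were seen.

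On the other side stood Ndufc1, an accessory subunit of the membrane arm, at 14.9, 22.2 and 30.7 CPM in case and 28.6, 31.2 and 27.3 CPM in control (log2 fold change -0.37, SE 0.26). It was -0.11 without case 5 and -0.65 without case 9. Ndufb8, the complex I gene with the most counts of the nuclear ones, was at 102, 144 and 145 CPM in case and 93.8, 202 and 148 CPM in control. Its log2 fold change of -0.18 turned to 0.14 without control 6, and was -0.42 without control 5. The accessory subunits Ndufs5 (6.04 CPM in control 5 and 11.2 to 17.0 elsewhere) and Ndufs6 (4.29 CPM in control 5 and 18.1 in control 6, with 5.79 to 10.5 elsewhere) were among the 5 nuclear members with the widest spread over libraries of those averaging 5 CPM or more. The Ndufs6 log2 fold change of -0.61 was -0.02 without control 6 and -0.99 without control 5.

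Ndufa1, a small accessory subunit encoded on the X chromosome, was listed at 0 counts in case 6. Its counts were 344 and 518 in the other case libraries, and 281, 490 and 367 in the control ones. Case 6 was the deepest library, so the limit from counting error alone was 3 counts or 0.200 CPM, while the other libraries held 24.6 to 43.5 CPM. A gap of this kind, 0 in 1 library and at least 100 counts in each of the others, occurred in 3 of 16066 tested genes (0.0187%). The log2 fold change of Ndufa1 was -0.45 (SE 1.19) with case 6 and 0.14 without it. With case 6 kept it was -3.55 in limma-voom and -1.24 without case 9. The listed 0 sets no bound on its expression, because the way reads were assigned to genes is not given.

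Complex II, succinate dehydrogenase, had all 4 subunits tested, with log2 fold changes from -0.12 to 0.14. Sdha, the flavoprotein that oxidises succinate, was at 127, 143 and 130.0 CPM in case and 108, 128 and 128 CPM in control (0.14, SE 0.14, and 0.0666 without control 5). Sdhc, a membrane anchor, was at 72.9, 103 and 106 CPM in case and 82.0, 108 and 117 CPM in control (-0.12, SE 0.20, and 0.06 without case 5). Both overlapped between groups, and in both the libraries numbered 5 were the lowest.

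The 9 nuclear subunits of complex III ran from a log2 fold change of -0.18 to 0.16, with 5 below 0. Uqcrc1, a core protein, was at 143, 206 and 189.9 CPM in case and 157, 165 and 159.9 CPM in control (0.16, SE 0.17). Cyc1, which encodes cytochrome c1, was at 83.7, 111 and 114 CPM in case and 97.9, 123 and 118 CPM in control (-0.13, SE 0.17, and 0.02 without case 5). Neither had separate groups, and neither differed by as much as its standard error. Uqcrc1 was 0.33 without case 5 and 0.0523 without case 6.

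Complex IV, cytochrome c oxidase, has nuclear subunits that come as paired isoforms, one general and one favoured in certain tissues. Of its 18 nuclear rows 16 were tested, with 10 below 0 and a median of -0.14. The other 2, Cox7b2 and Cox8c, had 0 counts in all 6 libraries. Cox4i1, the general form of subunit 4, was at 300.0, 420.1 and 394 CPM in case and 288, 392 and 354 CPM in control. Cox4i2, the form known from lung and from low oxygen, was at 22.8, 25.4 and 30.3 CPM in case and 30.6, 28.9 and 25.0 CPM in control. Cox4i1 was lowest in the libraries numbered 5. Cox4i2 had its highest value in 1 of them, control 5, and its lowest in the other, case 5. Neither differed between the groups beyond its spread (log2 fold change 0.11, SE 0.20, and -0.11, SE 0.17).

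Subunit 8 has a general and a muscle form. Cox8a, the general form, was at 90.8, 142 and 161 CPM in case and 81.3, 153 and 146 CPM in control. Cox8b, the form of heart, skeletal muscle and brown fat, was counted 2, 13 and 36 times in the case libraries and 0, 93 and 67 times in the control ones, or 0.160, 0.865 and 3.03 CPM against 0, 7.32 and 6.12 CPM. Its log2 fold change was -1.74 (SE 1.35, edgeR adjusted p 0.999), and ran from -3.07 without case 9 to -1.17 without control 6 in edgeR. In limma-voom it was -0.67. Cox6a2, the muscle form of subunit 6A, was at 7.19, 11.3 and 26.9 CPM in case and 6.65, 25.7 and 19.3 CPM in control, and its general partner Cox6a1 at 145, 209 and 229 CPM and at 179, 263 and 218 CPM. Cox6a2 had a log2 fold change of -0.19 (SE 0.60) that turned to 0.24 without control 6 and to 0.17 without case 5. Both muscle forms were lowest in the same 2 libraries, those numbered 5, and highest in case 9, control 6 and control 10. Skeletal muscle markers took 0.168%, 0.133% and 0.134% of counts in these 3 libraries, 0.0487% in case 6, 0.0174% in case 5 and 0.00134% in control 5. Brown fat's Ucp1 was at 0 in all 6. The part of muscle in these values was not tested.

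**Figure D3:**
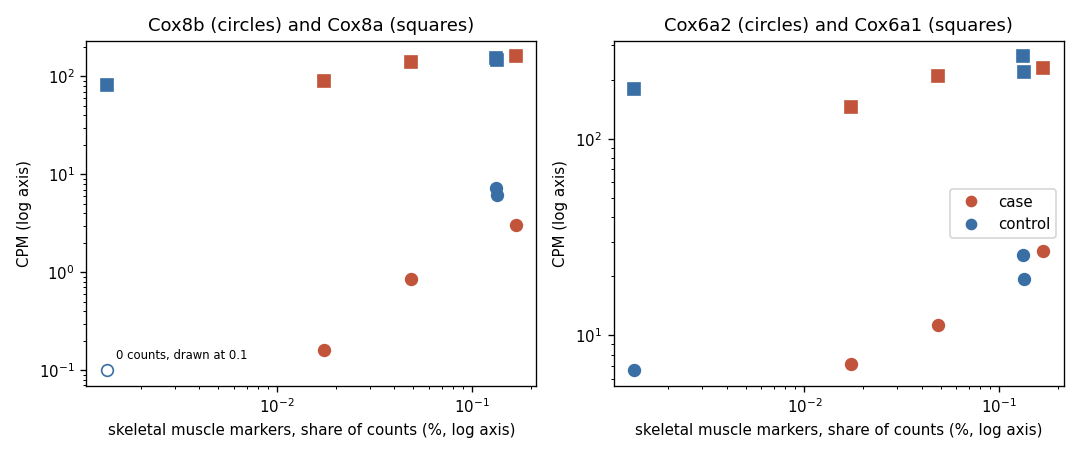
CPM (log axis) of the muscle isoforms Cox8b and Cox6a2 (circles) and their general partners Cox8a and Cox6a1 (squares) against the share of counts from 16 skeletal muscle markers (%, log axis), one point per library, case in red and control in blue, with the open circle for 0 counts. Cox8b ran from 0 to 7.32 CPM and Cox6a2 from 6.65 to 26.9 CPM, both lowest in control 5, the library with the fewest muscle counts.

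The promoters of these isoforms differed in sequence. Cox4i1, Cox8a and Cox8b were all lowest in both libraries numbered 5, as most nuclear subunits were. Cox8b, at low counts, spread far wider than Cox4i1 and Cox8a. Their promoters are shown for this reason. Each is 300 bases, 250 before and 50 after the start of the gene, from RefSeq on build GRCr8, written 5′ to 3′ on the strand of the gene. Capitals mark matches on either strand to 5 motifs: that of nuclear respiratory factor 1 (its core CGCATGCG, to which a longer form was shortened after a first search), that of ETS factors such as GABP (CCGGAAG), YY1 (AAGATGGC), oestrogen-related receptors (AAGGTCA) and the TATA box (TATAAA). Cox4i1 lies at chr19:65630133-65630432 on the plus strand, Cox8a at chr1:213833574-213833873 and Cox8b at chr1:205408224-205408523, both on the minus strand.
Cox4i1: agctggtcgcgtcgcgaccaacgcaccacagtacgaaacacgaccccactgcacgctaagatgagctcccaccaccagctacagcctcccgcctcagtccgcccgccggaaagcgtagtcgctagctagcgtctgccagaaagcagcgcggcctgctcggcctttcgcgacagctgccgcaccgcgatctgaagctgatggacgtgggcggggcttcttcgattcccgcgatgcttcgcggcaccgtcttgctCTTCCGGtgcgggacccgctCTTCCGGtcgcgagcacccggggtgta
Cox8a: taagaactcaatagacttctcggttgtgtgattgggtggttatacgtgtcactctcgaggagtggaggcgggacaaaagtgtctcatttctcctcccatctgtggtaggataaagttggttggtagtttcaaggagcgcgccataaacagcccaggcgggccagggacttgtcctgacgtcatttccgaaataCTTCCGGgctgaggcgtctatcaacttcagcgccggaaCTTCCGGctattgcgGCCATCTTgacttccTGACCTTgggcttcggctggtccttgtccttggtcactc
Cox8b: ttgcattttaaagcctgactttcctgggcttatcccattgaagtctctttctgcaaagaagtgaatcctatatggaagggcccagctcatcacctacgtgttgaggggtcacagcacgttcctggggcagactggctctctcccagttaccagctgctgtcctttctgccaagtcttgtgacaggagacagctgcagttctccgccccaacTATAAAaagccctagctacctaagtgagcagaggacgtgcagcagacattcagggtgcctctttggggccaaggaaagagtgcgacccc
Cox4i1 held 2 ETS matches and Cox8a 2 ETS matches, 1 YY1 match and 1 receptor match. Cox8b held 1 TATA match, with its first base 39 bases before the start, and no match to the other 4 motifs in this window. No matches overlapped in these 3 promoters.

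Promoters were found for 73 of the 83 nuclear subunits of the 5 complexes. An ETS match stood in 20 of the 73 (27.4%), against 8.75% of 33469 promoters of the same length, a YY1 match in 16 (21.9% against 3.17%) and a receptor match in 11 (15.1% against 4.61%). The nuclear respiratory factor 1 motif stood in 7 (9.59% against 1.66%), namely Atp5g2, Atp5i, Atp5j, Atp5l, Atp5o, Ndufa11 and Uqcrc1. The TATA motif stood in 6 (8.22% against 14.2%), namely Atp5l, Cox8b, Ndufa2, Ndufa7, Ndufs6 and Uqcr10. Cox6a2, the other muscle form, and the general Cox6b1 held no match to any of the motifs. The 73 were all protein-coding, whereas the 33469 were not limited by gene type and include the 73. The shares therefore do not show what sets these genes apart from other protein-coding ones. A match describes letters only and is no evidence of binding.

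Among the other isoform pairs, Ndufa4l2 was the nuclear complex IV gene with the smallest p on the lower side. It is the low-oxygen relative of Ndufa4, a subunit first counted with complex I and now placed with complex IV. Ndufa4l2 was at 12.1, 7.38 and 9.58 CPM in case and 19.4, 12.0 and 12.9 CPM in control (log2 fold change -0.61, SE 0.28, edgeR adjusted p 0.999). Case 5 lay just above control 6, and the value was -0.36 without control 5. Ndufa4 itself was at 75.2, 86.3 and 107 CPM in case and 58.0, 99.3 and 105 CPM in control (0.03, SE 0.25). Cox6b1 (0.09) and its testis-associated partner Cox6b2 (-0.26, from 2.08 to 7.08 CPM) overlapped between groups, as did Cox7a2 (-0.07).

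Of the 15 nuclear subunits of complex V, 9 lay below 0 and 6 above, with a median log2 fold change of -0.01. Atp5b, the catalytic beta subunit and the nuclear member with the most counts, was at 878, 1031 and 1030.2 CPM in case and 783, 1013 and 1085 CPM in control (0.03, SE 0.20). Atp5i, the small e subunit tied to dimer formation, was at 32.0, 45.1 and 51.2 CPM in case and 26.4, 36.3 and 37.2 CPM in control (0.36, SE 0.22). Atp5l, the g subunit, was at 65.2, 90.0 and 87.1 CPM in case and 82.4, 113 and 98.3 CPM in control (-0.28, SE 0.18). None of the 3 had separate groups. Atp5i was 0.56 without case 5, 0.21 without case 9 and 0.22 without control 5, and Atp5l was -0.12 without case 5 and -0.13 without control 6.

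Atp5f1, the peripheral stalk subunit now named Atp5pb, departed from the other members of complex V. It was at 38.5, 81.2 and 92.7 CPM in case and 65.6, 42.3 and 41.0 CPM in control. Case 6 and case 9 were the highest libraries and control 5 came next, whereas case 5 was the lowest. The log2 fold change was 0.51 (SE 0.34), 0.27 without case 9, 0.84 without case 5 and 1.10 without both libraries numbered 5.

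The 7 assembly factors of complex I, which build the enzyme but are not part of it, had 3 members with separate groups, all lower in case, where 4.42% of all genes were separate and lower. Ndufaf6 was at 3.91, 2.73 and 3.95 CPM in case and 6.83, 5.27 and 4.57 CPM in control (log2 fold change -0.66, SE 0.31, edgeR adjusted p 0.999). Ndufaf1 was at 5.83, 5.92 and 6.39 CPM in case and 6.92, 9.37 and 9.05 CPM in control, and Ndufaf4 at 5.51, 7.25 and 6.22 CPM and at 9.02, 7.56 and 8.13 CPM. Both were named after their values were seen. Ndufaf3, the factor with the most counts, was at 36.4, 35.4 and 44.0 CPM in case and 29.2, 40.5 and 33.0 CPM in control (0.17, SE 0.18). Its value was 0.0662 without case 9, 0.0710 without control 5 and 0.34 without control 6. The remaining 3 ran from a log2 fold change of -0.07 to 0.14.

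The rule also took 14 rows that are pseudogenes, copies or genes of other function, of which 9 were tested. Cox7a2l, a factor that joins complexes III and IV into supercomplexes, was at 152, 181 and 202 CPM in case and 168, 219 and 216 CPM in control (log2 fold change -0.17, SE 0.18, and -0.0422 without case 5 or -0.28 without control 5). The pseudogene Uqcrb-ps1 was counted 337, 444 and 449 times in case and 344, 300 and 359 times in control. Its parent Uqcrb was counted 297, 417 and 447 times and 258, 452 and 466 times. Reads of such near-identical copies could have been shared between rows, so the values of both are uncertain. Atp5hl1, a pseudogene, was at 1.92, 2.39 and 1.51 CPM in case and 3.06, 2.75 and 3.02 CPM in control, with separate groups (-0.59, SE 0.33). The 7 untested rows (Cox7b2, Cox8c, Cox6c-ps1, Ndufa7l, Ndufb4-ps1, Ndufb4l1 and Ndufs5-ps1) had 0 to 10 counts in any library.

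Set against each other within a library, mitochondrially encoded counts were 5.40, 3.83 and 5.02 times the nuclear ones in case 5, 6 and 9 and 7.95, 5.0 and 5.99 times in control 5, 6 and 10. On the log2 scale this was 2.23 ± 0.262 in case and 2.63 ± 0.338 in control, a difference of -0.40. Case 5 and case 9 lay above control 6, so the groups overlapped. Control 5 had the highest ratio, with the highest mitochondrial and the second lowest nuclear share, and case 6 had the lowest. The difference was -0.22 without control 5 and -0.25 without case 6, and -0.26 with mean log2 CPM in place of summed counts. This ratio needs no scaling between libraries, and no p is given for it because it is a score over genes chosen with results known.

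**Figure D4:**
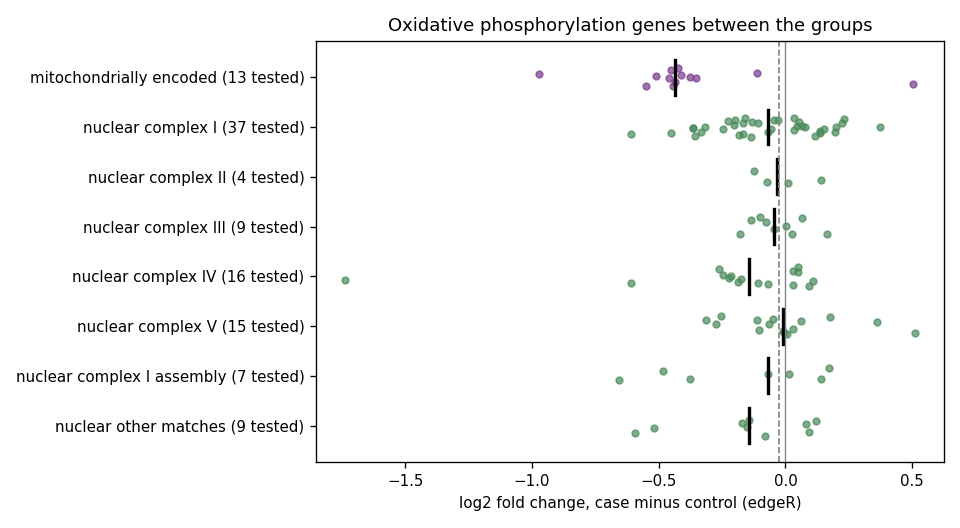
Log2 fold change (edgeR, case minus control) of each tested gene, by genome and complex, with a black bar at each median, the grey line at 0 and the dashed line at the median of all tested genes (-0.02). The mitochondrially encoded genes lay below 0 except ND6, at a median of -0.44, while medians of the nuclear groups lay between -0.14 and -0.01.

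Other genes that serve the pathway were taken from 7 lists, and edgeR called 0 genes in any of them. The genes named below were those with the smallest p of each list. Separate groups were seen in 1 higher and 1 lower of 16 complex IV assembly genes, and in 1 of 17 mitochondrial DNA and RNA genes. They were seen in 1 of 10 nucleotide and phosphate carriers, 1 of 15 electron carrier genes and 0 in each other list, against 8.47% of all genes. In each list 0 or 1 gene had an unadjusted p under 0.05 in edgeR, against 4.15% of all genes. Of 17 genes that maintain, transcribe or stabilise mitochondrial DNA and RNA, 10 lay above 0 and 7 below, with a median log2 fold change of 0.04. Polrmt, the mitochondrial RNA polymerase, was at 24.0, 26.7 and 22.1 CPM in case and 22.0, 14.4 and 13.8 CPM in control. Its groups were separate by a narrow gap, with a log2 fold change of 0.54 (SE 0.22, unadjusted p 0.0457 and adjusted p 0.999 in edgeR). The direction for the polymerase was thus opposite to that of 12 of the 13 mitochondrially encoded messages, and neither passed the test. Mterfd2 (-0.29) and Peo1, the helicase (-0.17), overlapped.

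Surf1, an assembly factor of complex IV, was counted 46, 40 and 37 times in case and only 5, 3 and 16 times in control. Its groups were separate, and the log2 fold change was 2.15 (SE 0.63, unadjusted p 0.0102 and adjusted p 0.999 in edgeR). The other 15 tested genes of its list lay on both sides of 0, among them Cox11 (-0.51, with separate groups) and the copper chaperone Cox17 (0.23), and the list median was -0.03. Slc25a5, an ADP and ATP carrier of the inner membrane, was at 181, 236 and 228 CPM in case and 151, 162 and 169 CPM in control, again with separate groups (0.42, SE 0.16, unadjusted p 0.0305 and adjusted p 0.999 in edgeR). Ucp2, an uncoupling protein of many cell types, overlapped at 0.25. Ckmt1b, a mitochondrial creatine kinase, also overlapped, at -1.62 (SE 0.99), with 77 counts in control 5 and 5 to 20 elsewhere.

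The 13 tested genes of the tricarboxylic acid cycle, which feeds the chain with electrons, ran from -0.24 (Dld, with Dlst also at -0.24) to 0.23 (Idh3g), with a median log2 fold change of -0.0023. The 15 genes of electron carriers and their suppliers had a median of 0.04, and Coq9, needed to make coenzyme Q, had separate groups at -0.21. Pdss2 (-0.31) and Coq3 (-0.20), of the same synthesis, overlapped. The 11 tested assembly genes of complexes II, III and V had a median of -0.09, with Uqcc1 at -0.37 and Ttc19 at -0.38. The most extreme value of that list was -1.82 (SE 1.05), of Sdhaf1, listed as RGD1562079. It was counted 15, 76 and 9 times in case and 7, 171 and 121 times in control, so its groups overlapped. Of 10 nuclear regulators of mitochondrial biogenesis 6 lay above 0, with a median of 0.06, and Gabpa, the ETS factor whose motif is given above, was at -0.15, its partner Gabpb1 at 0.24 and Ppara at 0.36. In that last list 0 of 10 genes were lower and 4 were higher in both libraries numbered 5 than in each other library, while 5 of 13 cycle genes were lower and 0 higher. Lower in both were also 5 of 10 nucleotide and phosphate carriers, 5 of 16 complex IV assembly genes and 5 of 17 mitochondrial DNA and RNA genes. So were 4 of 15 electron carrier genes and 2 of 11 other assembly genes, where 17.8% of all tested genes were.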

How the data were processed

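Per the labels' protocols, RNA came from TRIzol extracts of alveolar tissue and was sequenced single-end on an Ion kit for total RNA. The deposited table holds raw counts for each gene symbol in 6 libraries. Aligner, counting program, build, annotation and strand use: not given in the sources used here. Columns were matched to libraries by title. Genes and lists were chosen with earlier results of these data known.

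Low genes were removed with filterByExpr of edgeR 4.0.16 (R 4.3.3), which left 16066. Counts were scaled by the trimmed mean of M-values and tested two-sided with the quasi-likelihood test on group alone, adjusted by Benjamini-Hochberg over all tested genes at 0.05. CPM are counts per 1000000 of the adjusted library size, and log2 CPM used a prior count of 2. Standard errors are the fold change divided by the root of F. The test was checked on simulated counts, and that check does not turn a count of 0 into evidence of no difference. Shares have 95% Wilson intervals (SciPy 1.17.1). Alternatives were other scalings and filters, DESeq2 1.42.0, limma-voom (limma 3.58.1), single libraries left out, and a block on the number in the title; leaving out both libraries numbered 5 was added after seeing the data.

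Genes were named by a rule: every mitochondrial row; in each nuclear group the smallest p on each side and the most counts; paired isoforms; the 5 widest spreads among nuclear rows averaging 5 CPM or more; and rows at 0 in 1 library and 50 or more in another; and up to 3 genes with the smallest p in each of the other lists. Members were placed in complexes by hand. RefSeq GRCr8 names matched 103 of 104 nuclear rows, 18 of them by older symbols; 7 names of the other lists were also matched so. Of the isoform rule, Cox7a1 had no row of that name in the count table.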

Additional observations from a re-analysis of the deposited data

How the results depend on the processing

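No oxidative phosphorylation gene was called under any of the 16 other settings, and the median of all genes stayed between -0.03 and 0.02. The count over all genes was 0, but 21 with DESeq2 and 2 without control 5; leaving out 1 library gave 0 to 2. Leave-one-out ranges were -0.54 to -0.32 for the mitochondrial median, -0.22 to 0.11 for the nuclear median, -1.64 to -0.859 points for the mitochondrial share, -0.0360 to 0.109 points for the nuclear share and -0.55 to -0.22 for the log2 ratio. The nuclear share difference (0.0179) was -0.000957 without haemoglobin and type I collagen genes and -0.0196 with the adjusted library size. With the title number as a replicate block, the contrast rested on the pairs numbered 5 and 6 only. A library whose number occurs in 1 group alone adds nothing to it. The mitochondrial median was then -0.55 and the nuclear -0.12. In this fit edgeR called 0 genes and 0 members. With so few libraries left in the contrast, that count cannot show that no gene differed. The same pairs gave a log2 ratio of -0.47. Deviations correlated across genes at 0.38 for the pair numbered 5 and 0.136 for that numbered 6, but control 6 correlated better with case 9 (0.283), so the numbers are not shown to pair the libraries.

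Of 43 genes named by the rule 18 changed sign somewhere, to values of at most 0.2826 in size, and the cause was not tested. Ranges with 1 library left out were ND4L -0.32 to 0.12, ND6 0.15 to 1.49, Ndufb8 -0.42 to 0.14, Sdhc -0.26 to 0.0557, Cyc1 -0.22 to 0.0202, Cox4i1 -0.0035 to 0.27, Atp5b -0.10 to 0.16, Uqcrb-ps1 -0.0304 to 0.26 and Cox4i2 -0.23 to 0.0112. They were Cox6a1 -0.31 to 0.0225, Cox6a2 -0.89 to 0.24, Cox6b1 -0.0610 to 0.28, Cox6b2 -0.52 to 0.10, Cox7a2 -0.33 to 0.11, Cox8a -0.19 to 0.28, Ndufa4 -0.19 to 0.22, Ndufa1 -1.24 to 0.14 and Ndufs5 -0.28 to 0.34. Without both libraries numbered 5, ND6 was -0.0851, Cox4i2 0.0867, Ndufa4 -0.0474 and Ndufs5 -0.13; Cox6b1 was -0.0546 with the replicate block, and Cox7a2 0.00067 with library totals. The block also gave Ndufa1 -2.58, Ndufs7 0.23, Atp5f1 0.09, Ndufc1 -0.72 and ND6 1.51. Depth limits genes such as ND6, Cox8b and Ndufaf2, which had under 100 counts in every library.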

Other observations

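Counts of ND4L, set against those of ND4 on the same message, came to 67.2, 57.6 and 49.7% in case 5, 6 and 9 and to 45.6, 38.7 and 43.4% in control 5, 6 and 10. The libraries of the groups did not overlap in this ratio, which was chosen after its values were seen and was not tested. The groups overlapped in every other ratio taken. Those were ATP8 to ATP6, ND6 to ND5, COX2 to COX1, Uqcrb-ps1 to Uqcrb and the isoform pairs of complex IV. How often other gene pairs separate the groups was not computed, so this ratio has no background share. COX2 counts came to 56.9% of COX1 counts in control 5 and to 85.3% in control 6, with 61.9 to 73.8% in the others. Ndufa4l2 counts came to 33.5% of Ndufa4 counts in control 5, 16.0% in case 5 and 8.56 to 12.2% in the others.

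Besides Ndufa1, the genes at 0 in 1 library with at least 100 counts in each of the others were Cpne1, a copine, and Myh2, a skeletal muscle myosin heavy chain, both at 0 in control 5. Myh2 had 148 to 1273 counts and Cpne1 137 to 307 in the other 5 libraries.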
